A study of Gallus gallus with 403 samples.

Results

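HINTW and HNRNPKL are genes of the chicken W chromosome, and their signal was followed on every array of a tissue collection from Gallus gallus. They are 2 of the 13051 genes that could be named on the array and 2 of the 17 placed on chromosome W by the RefSeq gene table of assembly GRCg7b. The pair was chosen by its signal, which is high on some arrays and low on others, so the levels and the counts of high and low arrays below are a description and carry no test. HINTW had 2 probe sets and HNRNPKL 4. For each gene the probe set with the highest mean over all arrays was selected on the same values.

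In birds the female carries a Z and a W chromosome and the male a pair of Z chromosomes, so an RNA made only from the W is found only in females. HINTW encodes a diverged member of the histidine triad nucleotide-binding protein family, lies on the W in many near-identical copies, and has been studied as a candidate in female gonad development. HNRNPKL is the W-linked relative of HNRNPK, a Z-linked gene for an RNA-binding protein of the nucleus. Copies and relatives this alike can bind the same probes, and a probe set cannot tell such copies apart.

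RNA from 20 tissues had been hybridised to Affymetrix Chicken Genome arrays, 1 group for each tissue and age, with 4 arrays in 94 groups, 3 in 5 groups and 6 in 2 groups. From the nervous system came retina, pineal gland, brain and cerebral cortex, and from the gut whole intestine, ileum, jejunum, duodenum and epithelia of the ceca. Spleen, lung, liver, abdominal fat, the tibiotarsus growth plate and the muscles gastrocnemius (of the leg) and pectoralis (of the breast) were also sampled, and from the reproductive organs testes, ovary, ovarian cortex and oocytes. The sample numbers form 2 runs, called the first (251 arrays) and the second (152 arrays) below. Ages ran from day 0 to day 56, with week 16 for ovarian cortex, week 17 for ovary and testes, week 21 for oocytes and year 2 for a second ovary group. Breed, genotype and treatment are not given in the sources used here. Each array carries a sex label, female on 203 arrays and male on 200. In 94 groups replicates 1 and 2 are labelled male and replicates 3 and 4 female, in 2 groups of 6 replicates 1 to 3 are labelled female and the others male, 3 groups are labelled female throughout and 2 male throughout. The replicates are numbered, but nothing says that they were separate birds, so a p-value here measures only the spread between arrays, which may be technical.

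Some arrays stood apart from their labels. The 3 arrays labelled liver at day 56 lacked liver transcripts, since albumin (ALB) lay between 7.71 and 8.30 there and between 14.33 and 15.79 in the other 6 liver groups, and transthyretin (TTR) between 4.62 and 4.78 against 11.80 to 13.73. No gene of any tissue's marker list exceeded 8.30 on them. Abdominal fat at days 1, 7 and 10 had the adipocyte hormone gene ADIPOQ between 5.69 and 6.93, against 10.08 to 12.29 in the other 6 fat groups, and PLIN1, FABP4 and LPL did not overlap between these groups either. Brain at days 1, 14 and 21 and the second brain group at day 7 had the myelin gene MBP between 5.08 and 6.41 and the glial gene GFAP between 5.10 and 6.29, against 9.66 to 13.69 and 7.59 to 11.35 in the other 8 brain groups. The neuronal genes SNAP25 and NEFM overlapped, at 7.77 to 10.56 and 8.51 to 10.66 against 9.62 to 12.90 and 10.54 to 13.47. Pectoralis muscle of the first run at days 21 and 28 had the fast myosin light chain MYL1 between 6.94 and 9.22, against 12.32 to 14.40 in the other 6 groups, and the troponin gene TNNC2 between 9.61 and 12.23 against 12.95 to 14.46. Titin (TTN), at 12.41 to 13.46, lay within the range of those groups, which reached 14.09. The oocyte arrays were high in the egg coat gene ZP3 (13.62 to 14.62) and in the granulosa genes FOXL2 (11.18 to 12.19) and INHA (10.24 to 11.13). On the same arrays CYP19A1, also of the ovary list, lay between 5.12 and 5.83, against 10.79 to 12.27 in the ovary and ovarian cortex groups, and the oocyte factor GDF9 had a median of 5.92. Of the marker lists, 4 of 4 liver, 4 of 4 brain, 2 of 2 retina, 3 of 3 pineal gland, 4 of 4 intestine, 3 of 3 lung, 4 of 4 spleen, 3 of 3 muscle, 4 of 4 growth plate, 4 of 4 abdominal fat, 6 of 8 testes, 5 of 6 ovary and 2 of 6 measured oocyte genes had a median at least 1 log2 unit above other tissues. The only measured red blood cell gene, HBA1, ran from 5.12 to 14.83. Finally, 16 arrays of gastrocnemius and second-set pectoralis muscle at days 21 and 28 fell into 4 sets of 4. These sets crossed the tissue, age and sex labels, and each held arrays labelled female and arrays labelled male. Arrays of a set correlated at 0.967 to 0.980 over 33969 probe sets and arrays of different sets at 0.885 to 0.914. Within other groups of wide spread, arrays correlated at a median of 0.887 and at up to 0.973, which overlaps the range within sets. Whether the 16 are separate samples was not tested. HNRNPKL lay between 7.60 and 7.84 in the first set, 7.06 and 7.22 in the second, 5.64 and 6.37 in the third, and 7.14 and 7.87 in the fourth.

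HINTW fell into well separated levels. Its log2 signal ran from 4.31 to 13.98, and the threshold that best divides the arrays in 2 lay at 8.92, with 187 arrays (46.4%) above and 216 below. The low arrays had a median of 5.96 and the high arrays one of 11.62. Just below the threshold lay 8.83 and 8.68 and just above it 9.01 and 9.06, and all of these 4 values except 9.06 came from liver at day 56 or from oocytes. With each matched muscle set counted once, 175 of 391 arrays (44.8%) were high. Without liver at day 56 it was 185 of 400 (46.3%), without fat at days 1, 7 and 10 175 of 391, and without the first-run pectoralis groups at days 21 and 28 187 of 393 (47.6%). Without the 4 brain groups low in MBP and GFAP it was 178 of 385 (46.2%). In bulk tissue fewer cells of a type and less RNA per cell cannot be told apart.

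HNRNPKL had a less clear division. Its log2 signal ran from 4.03 to 10.18, and the threshold of 7.18 left 113 arrays (28.0%) above and 290 below, with 61 arrays within 0.5 log2 units of it. The values next to the threshold were 7.14 and 7.22. HINTW had only 8 arrays within 0.5 units of its own threshold.

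**Figure D1:**
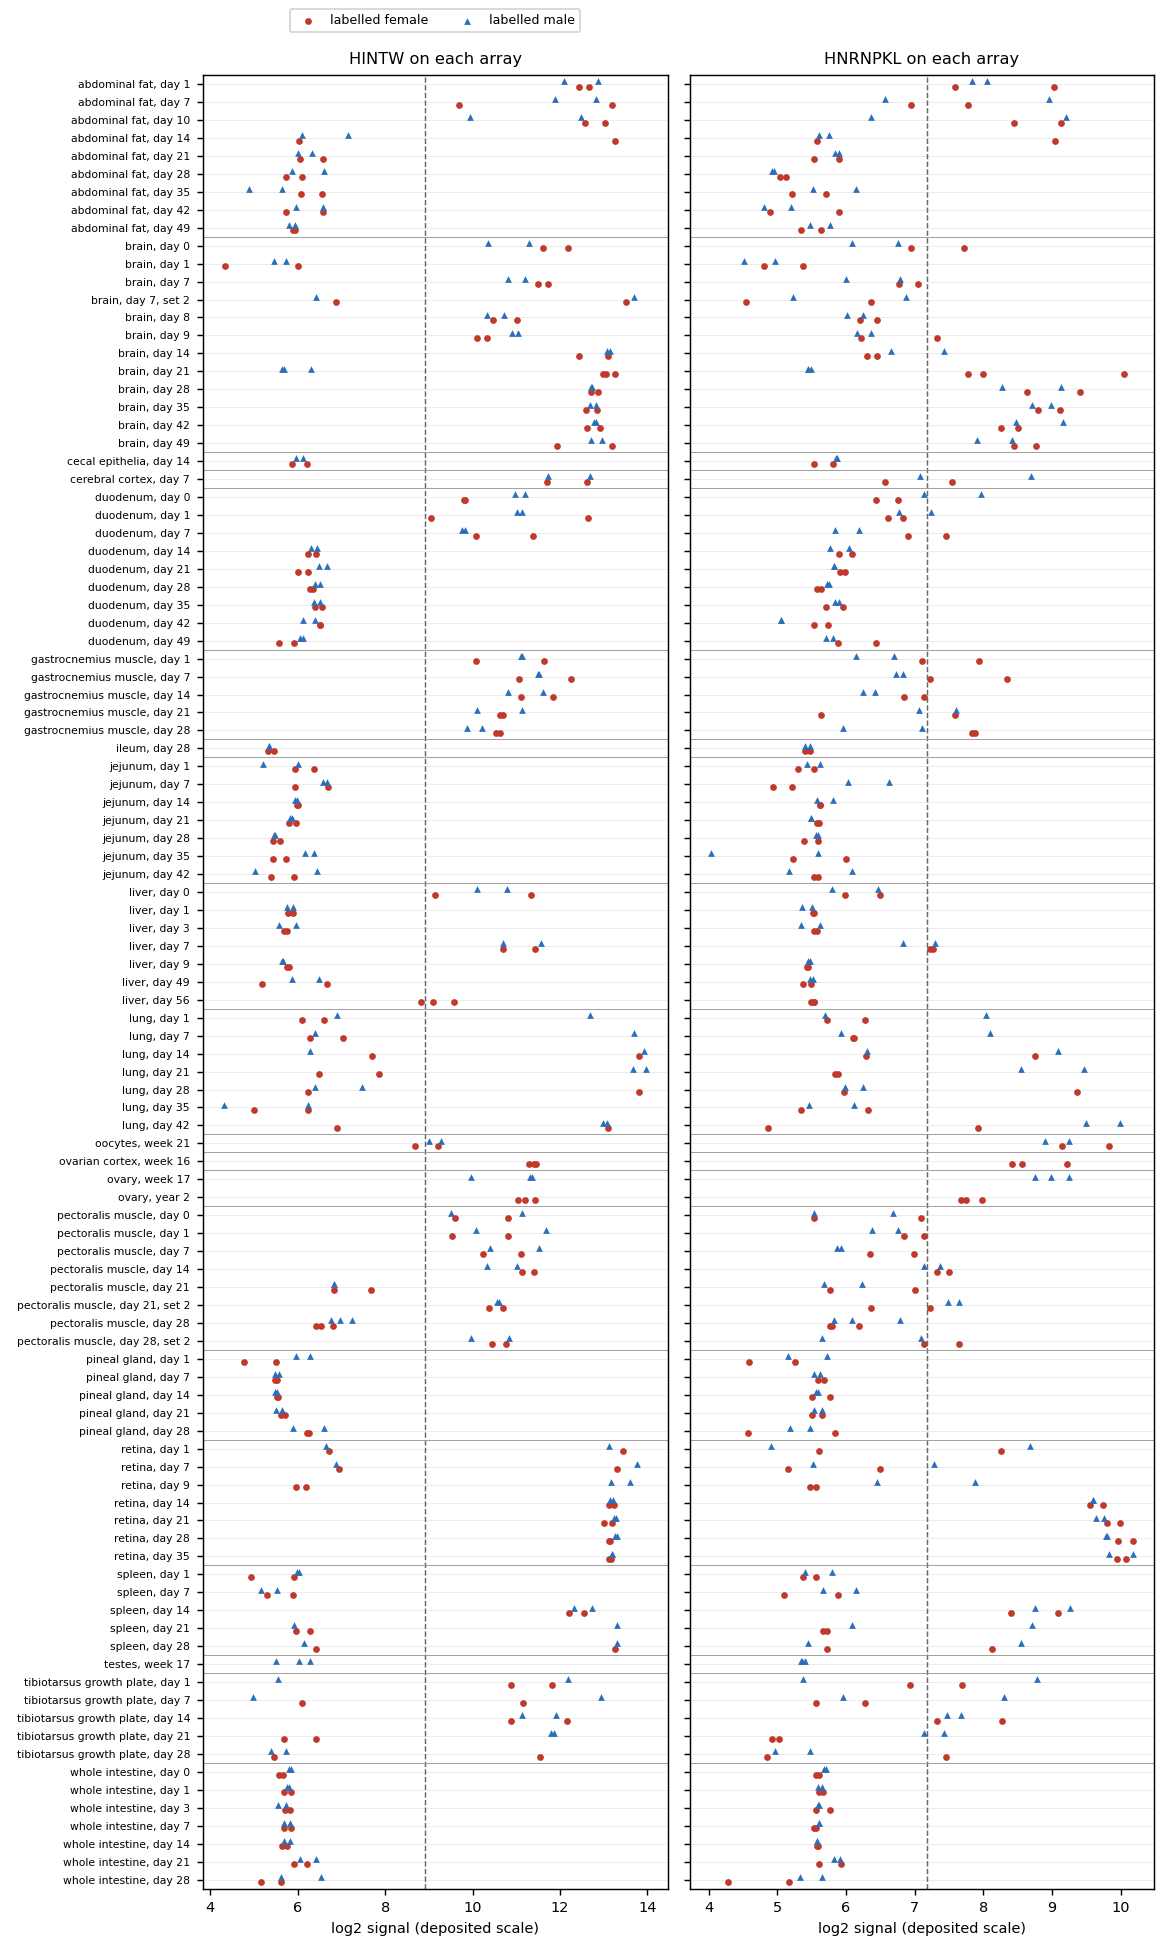
Log2 signal of HINTW (left) and HNRNPKL (right) on each array, with a row for each tissue and age group, red circles for arrays labelled female, blue triangles for arrays labelled male and dashed lines at the thresholds of 8.92 and 7.18. Most rows lie wholly on 1 side of the HINTW line whatever the labelled sex, and brain at day 21 is the row with both labels in which the labels and the sides agree.

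Most groups of arrays were of a single kind in HINTW. All arrays were high in 38 groups and all were low in 43, and 20 groups held both kinds. Of the 96 groups labelled with both sexes, 35 were all high, 42 all low and 19 mixed. Mixed groups thus made up 19.8% of these 96 groups, while the labels would put both sexes in each of them.

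The tissues differed in how these kinds were spread. All 28 arrays of jejunum, all 28 of whole intestine, all 20 of pineal gland and all 4 each of ileum and cecal epithelia were low in HINTW, within 4.77 to 6.69. All 20 arrays of gastrocnemius muscle were high, between 9.88 and 12.25, as were the 4 of cerebral cortex, at 11.72, 12.69, 12.62 and 11.70. In the retina 22 of 28 arrays were high and in the brain 41 of 50. Pectoralis muscle had 24 of 34 high arrays, the growth plate 12 of 20, abdominal fat 13 of 36, liver 10 of 27, lung 10 of 28, spleen 7 of 20 and duodenum 12 of 36. Of the high arrays labelled liver, 2 were from day 56, without liver transcripts.

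Where HINTW was high, its range differed among tissues and, in brain, also among groups. In lung the 10 high arrays lay between 12.68 and 13.98, in retina 22 lay between 13.00 and 13.76, and in spleen 7 lay between 12.20 and 13.30. These ranges overlap each other and that of brain, so the tissues are not ordered by them. High arrays of brain ran from 10.10 to 13.70, of abdominal fat from 9.68 to 13.27, of the growth plate from 10.87 to 12.93, of duodenum from 9.06 to 12.64 and of pectoralis muscle from 9.50 to 11.69. High liver arrays of days 0 and 7 lay between 9.13 and 11.57, wholly below those of lung, retina and spleen. The high arrays labelled liver at day 56, which lacked liver transcripts, stood at 9.09 and 9.57. All high lung arrays came from mixed groups, and those of liver at days 0 and 7 from all-high groups. In brain, high arrays of mixed groups lay between 12.98 and 13.70. All-high brain groups lay between 10.10 and 12.18 at days 0, 7, 8 and 9, and between 11.93 and 13.19 at days 14, 28, 35, 42 and 49. Tissue, age and kind of group were not separated. The low arrays of all tissues other than oocytes and liver at day 56 lay at or below 7.87, a value of lung at day 21.

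**Figure D2:**
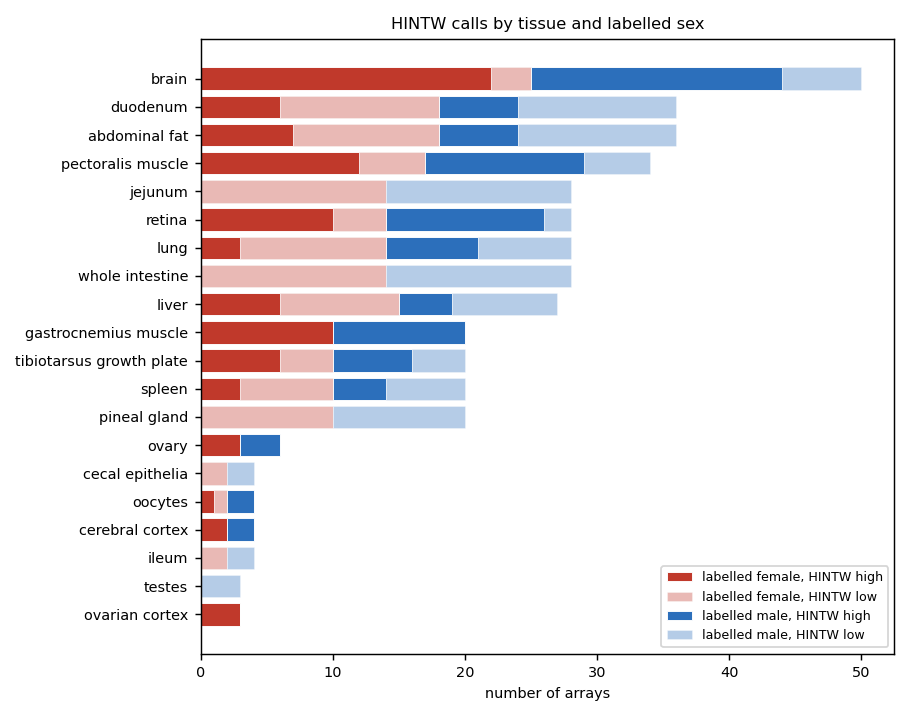
Number of arrays (x axis) in each tissue, with dark parts of the bars for arrays called high in HINTW and pale parts for arrays called low, in red for arrays labelled female and blue for arrays labelled male. Both colours are dark in gastrocnemius muscle, 10 arrays of each, and both are pale in jejunum and whole intestine, 14 of each.

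In the gonads both genes were high in ovary and low in testes, and in 1 ovary group this went against the sex label. The ovarian cortex at week 16, labelled female, had HINTW at 11.46, 11.29 and 11.40 and HNRNPKL at 9.22, 8.41 and 8.56. The ovary at year 2, labelled female, had HINTW at 11.19, 11.43 and 11.05 and HNRNPKL at 7.74, 7.67 and 7.98. The ovary at week 17 is labelled male on all 3 arrays, yet HINTW stood at 11.31, 11.37 and 9.96 and HNRNPKL at 8.98, 9.24 and 8.75. On those 3 arrays the ovarian genes FOXL2 and CYP19A1 (aromatase, which makes oestrogen) had medians of 11.50 and 11.09, while the testis factor DMRT1 had a median of 6.31. Not all listed markers went this way. INHA of the ovary list had a median of 6.36 there, against 6.93 in testes. Of the testes list, CYP17A1 had 11.07, against 10.91 in testes. PIWIL1, also of that list, had 9.68, against 11.72 in testes and 6.03 in somatic tissues. The testes at week 17, labelled male, were low in both, with HINTW at 5.51, 6.28 and 6.02 and HNRNPKL at 5.35, 5.41 and 5.36. The 4 oocyte arrays, of which replicates 1 and 2 are labelled male, had HINTW at 9.28, 9.01, 9.20 and 8.68, close to the threshold, and HNRNPKL at 9.25, 8.89, 9.15 and 9.82.

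Within a tissue the calls turned over between neighbouring ages. Of 64 steps from an age to the next within a tissue and run, 9 went from all high to all low or back, 39 joined groups of the same kind and 16 involved a mixed group. Second sets and the first-run pectoralis arrays titled day 28 were left out of these steps. A step can pass over ages of the other run. Duodenum thus counts as turning in both runs, from day 7 to 14 and from day 1 to 42. The mean of HINTW changed by 3.77 to 7.57 log2 units in the 9 steps that turned and by at most 0.68 in the 39 that did not. Liver turned 3 times in a row of ages. It was high at day 0, with HINTW at 10.78, 10.10, 9.13 and 11.33, low on all arrays at days 1 and 3 (5.56 to 5.97), high at day 7, with 11.57, 10.70, 10.69 and 11.43, and low again at days 9 and 49 (5.19 to 6.67). A turn joins a group wholly above the threshold to one wholly below it, so these groups cannot overlap.

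Duodenum was high at days 0, 1 and 7 (9.06 to 12.64) and low in all 6 groups from day 14 to day 49 (5.58 to 6.67). Abdominal fat was high at days 1, 7 and 10 (9.68 to 13.19), which are the ages with low ADIPOQ, mixed at day 14 and low from day 21 on (4.88 to 6.59). The part of the lower adipocyte markers in this was not tested. Brain was high at day 0, low on all 4 arrays at day 1 (4.34 to 6.01), and high on all arrays of the first group at day 7 and of the groups at days 8, 9, 14, 28, 35, 42 and 49. The groups with low MBP and GFAP were low in HINTW at day 1, mixed at day 21 and in the second group of day 7, and high at day 14, while the other 8 brain groups were all high. The part of these markers was not tested. Pectoralis muscle was high at days 0, 1, 7 and 14, and at days 21 and 28 it was low in the first-run arrays (6.41 to 7.68) and high in the second set (9.96 to 10.83). The low groups are those with lower MYL1 and TNNC2 and with TTN in the range of the others, and the part of this was not tested. The source name of the 6 first-run arrays titled day 28 gives 21 days. Spleen was low at days 1 and 7 (4.93 to 6.04) and high at day 14 (12.20 to 12.74).

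At a given age, tissues disagreed. At day 7 all arrays were high in the first brain group, cerebral cortex, pectoralis and gastrocnemius muscle, duodenum, liver and abdominal fat, and all were low in whole intestine, jejunum, pineal gland and spleen. Lung, retina, growth plate and the second brain group were mixed at that day. By replicate number from 1 to 4, lung was high in replicate 1 alone, the second brain group in 1 and 3, retina in 2 and 4, and the growth plate in 2 and 3. The replicates that were high thus differed from tissue to tissue. Of the arrays with an age in days, 16 of 20 were high at day 0, 22 of 52 at day 1, 0 of 8 at day 3, 35 of 60 at day 7, 4 of 4 each at days 8 and 10, 6 of 12 at day 9, 27 of 52 at day 14, 20 of 54 at day 21 and 20 of 52 at day 28. Later ages had 8 of 24 at day 35, 7 of 20 at day 42, 4 of 16 at day 49 and 2 of 3 at day 56. Different tissues were sampled at each age.

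**Figure D3:**
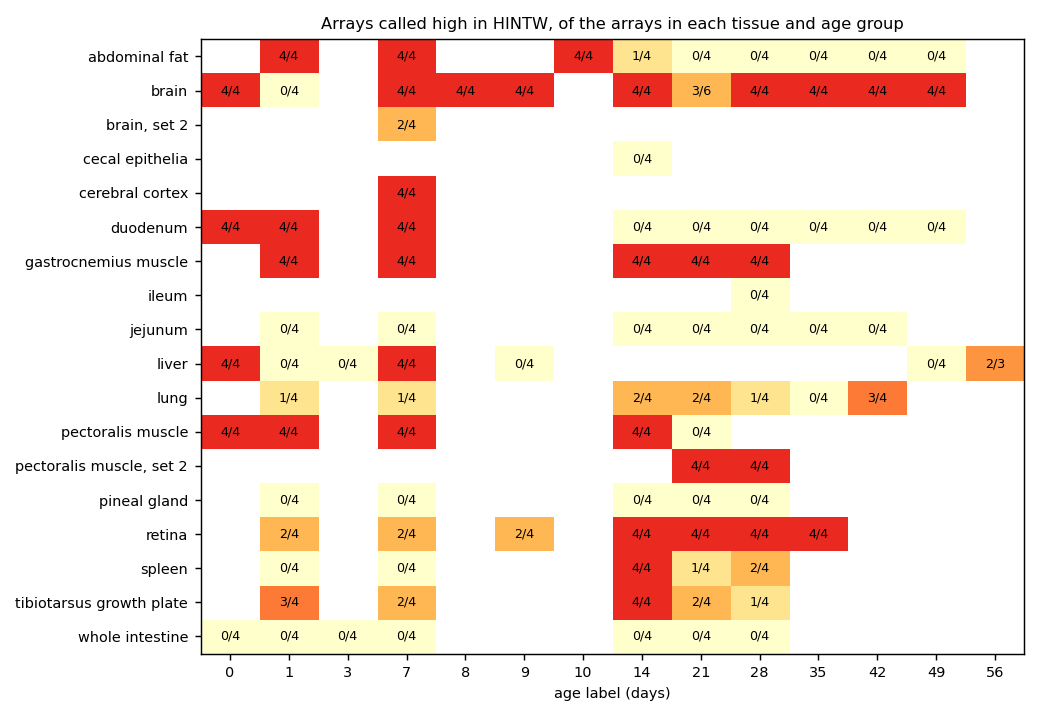
Arrays called high in HINTW out of the arrays in a group (the 2 numbers of each cell), by tissue (rows) and age label in days (columns), with darker colour for a larger share and white where no group was analysed. Gonads, oocytes and the 6 pectoralis arrays with 2 different age labels are not shown. Liver reads 4/4, 0/4, 0/4, 4/4 and 0/4 at days 0, 1, 3, 7 and 9.

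The 20 mixed groups give the closest view, because high and low arrays there share tissue, age and run. In 18 of them the high and low arrays were far apart, and in oocytes and in liver at day 56 all 7 arrays lay between 8.68 and 9.57. Lung had the most, with 6 mixed groups. In lung at day 14 HINTW read 6.28, 13.92, 13.80 and 7.71 for replicates 1 to 4, and HNRNPKL 6.31, 9.08, 8.75 and 6.29. At day 21 HINTW read 13.98, 13.66, 7.87 and 6.49, and HNRNPKL 9.47, 8.54, 5.89 and 5.84, so that the arrays labelled male were the high ones. Lung at day 42 was high in replicates 1 to 3, with HINTW at 12.99, 13.08 and 13.11 against 6.89, and HNRNPKL at 9.49, 9.99 and 7.92 against 4.86. A single array was high at day 1 (replicate 2, 12.68), day 7 (replicate 1, 13.70) and day 28 (replicate 4, 13.82), and the other lung arrays of these ages lay between 6.10 and 7.47.

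In the retina, which was high on all 16 arrays from day 14 to day 35, the 3 earlier groups were mixed. At day 1 HINTW read 6.64, 13.12, 6.71 and 13.44 and HNRNPKL 4.91, 8.68, 5.60 and 8.25. At day 7 HINTW read 6.87, 13.76, 6.94 and 13.31 and HNRNPKL 5.52, 7.28, 5.16 and 6.49. At day 9 both arrays labelled male were high in HINTW, at 13.60 and 13.16, and both labelled female low, at 6.18 and 5.96. Spleen had replicate 2 alone high at day 21, with HINTW at 13.30 and HNRNPKL at 8.71, and replicates 2 and 3 at day 28, with HINTW at 13.30 and 13.25.

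The growth plate was mixed in 4 of its 5 groups. At day 1 HINTW read 12.18, 5.54, 11.82 and 10.87 and HNRNPKL 8.78, 5.37, 6.93 and 7.69. At day 7 HINTW read 4.97, 12.93, 11.16 and 6.10 and HNRNPKL 5.96, 8.30, 6.27 and 5.56. At day 21 HINTW was 11.79 and 11.86 in the arrays labelled male and 5.69 and 6.41 in those labelled female. At day 28 replicate 3 alone was high, with HINTW at 11.55 and HNRNPKL at 7.46. Abdominal fat at day 14 had 1 high array, replicate 4, with HINTW at 13.27 and HNRNPKL at 9.04, while the other 3 lay between 6.04 and 7.16 in HINTW.

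Brain at day 21 was the only group with both labels in which every array fitted its own. It is 1 of the 4 brain groups with low MBP and GFAP, and the part of this was not tested. HINTW read 13.06, 13.27 and 12.98 on the 3 arrays labelled female and 6.30, 5.69 and 5.64 on the 3 labelled male. HNRNPKL read 7.99, 10.04 and 7.78 against 5.44, 5.45 and 5.49. How many other genes separate these labels was not counted. Every array fits its label in both genes here, so their values cannot overlap between the labels. In 3 groups the opposite held in HINTW for all 4 arrays, namely lung at day 21, retina at day 9 and growth plate at day 21. There the arrays labelled male were high in HINTW and those labelled female low.

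Over all arrays the share that was high in HINTW was nearly the same under both sex labels. HINTW was high on 94 of 203 arrays labelled female (46.3%) and on 93 of 200 labelled male (46.5%). HNRNPKL was high on 60 of 203 (29.6%) and 53 of 200 (26.5%). A HINTW call that is high with a female label or low with a male label was found on 201 arrays (49.9%). These were 126 of 251 (50.2%) in run 1 and 75 of 152 (49.3%) in run 2. Within the mixed groups it was found on 37 of 81 arrays (45.7%), and without brain at day 21 on 31 of 75 (41.3%). The 35 all-high and 42 all-low groups with both labels hold as many arrays of each label. They add equally to the HINTW counts under both labels, and as many of their arrays fit as do not. Only mixed groups and groups with 1 label can move these HINTW shares.

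A linear model with a mean for each tissue and age group compared the labels over all genes. The matched muscle arrays entered it as separate arrays although each set holds both labels, and no fit counted each set once. HINTW averaged 8.58 on 194 arrays labelled female and 8.71 on 194 labelled male in the groups that hold both, a difference of -0.13 ± 0.16 log2 units (SE, limma adjusted p = 0.831). Its direction was not stable, since it was 0.075 without replicate 2 of each group, -0.30 without replicate 1, -0.25 without brain at day 21 and 0.92 with replicate number as a block, none of which passed the threshold. For HNRNPKL the means were 6.55 and 6.55, with a difference of -0.01 ± 0.08 (limma adjusted p = 0.987). Permuting the labels within groups gave two-sided unadjusted permutation p-values of 0.430 for HINTW and 0.943 for HNRNPKL. Of 13046 genes tested none was called (0%), and 1302 had an unadjusted p under 0.05 in limma. The count was 169 without replicate 2 of each group, 0 without replicate 1, 3 or 4, and 26 without the group of 6 first-run pectoralis arrays titled day 28, with neither HINTW nor HNRNPKL among them. None of 17 W-linked and none of 605 Z-linked genes passed. The smallest adjusted p was 0.0618, shared by SCYL2, NEK7, PLA2R1 and SPOPL, all 0.18 to 0.23 log2 units higher with the female label, and OST4 followed at 0.0732. In the other direction ZBTB20, LRCH3, OVALX, FCRL4 and LOC427545 had the smallest values, from 0.0732 to 0.140.

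The difference between labels was not shown to depend on tissue or run for either gene. The test of unequal tissues gave an adjusted p of 1.00 for HINTW and 0.761 for HNRNPKL in limma, with 8 genes called of 13046 (0.0613%). That count was 182 without replicate 3 of each group, 1 without replicate 4, 5 without replicate 1 and 4 without replicate 2. The largest HINTW differences in size were -1.77 ± 0.58 (SE) in lung, with means of 8.08 for 14 arrays labelled female and 9.86 for 14 labelled male, and -1.10 ± 0.58 in retina, with means of 11.26 and 12.36 over 14 arrays each. Brain had 0.89 ± 0.44, with means of 11.45 and 10.56 over 25 arrays each. For HNRNPKL the largest differences in size were -0.98 ± 0.27 (SE) in lung, -0.83 ± 0.72 in cerebral cortex and 0.68 ± 0.32 in gastrocnemius muscle. These SEs and the test of unequal tissues use a spread pooled over all tissues, so for HINTW jejunum has the same SE of 0.58 as lung. The SD of HINTW within groups ran from 0.96 to 4.01 in lung and from 0.03 to 0.62 in jejunum. The printed SEs thus do not measure the spread within the tissue named. Between runs the difference moved by -0.10 ± 0.32 in HINTW (limma adjusted p = 0.955) and by -0.19 ± 0.15 in HNRNPKL (limma adjusted p = 0.748), with 4 genes called (0.0307%). The count between runs was 12 without replicate 2, 3 without replicate 3, and 0 without replicate 1 or 4.

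The calls of HNRNPKL and HINTW were the same on 327 arrays (81.1%). Both were high on 112 arrays and both low on 215. HINTW was high and HNRNPKL low on 75 arrays, and a single array, oocyte replicate 4, had the reverse. The 75 came from brain (19 arrays), pectoralis muscle (17), gastrocnemius muscle (13), duodenum (9), liver (7), abdominal fat and growth plate (3 each), and cerebral cortex and retina (2 each). Lung and spleen had none. On these 75 arrays HINTW lay between 9.06 and 13.70, and HNRNPKL between 5.53 and 7.14, which overlaps the range of 4.03 to 7.01 on arrays low in both.

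Within the mixed groups the calls of both genes were the same on 71 of 81 arrays (87.7%), and the order of the arrays was compared as well. In 19 of the 20 mixed groups every HINTW-high array had more HNRNPKL than every HINTW-low array of the group, with a gap from 0.05 log2 units in liver at day 56 to 3.29 in abdominal fat at day 14. The exception was oocytes. How many other genes separate these arrays in the same way was not counted. In the second brain group at day 7, HINTW read 13.70, 6.42, 13.52 and 6.88, and HNRNPKL followed with 6.87, 5.23, 6.36 and 4.54 while staying under its threshold on all 4. Deviations from the group mean correlated at r = 0.91 over the 81 arrays of mixed groups and at 0.28 over the 322 other arrays. The points share their groups, and the correlations are descriptions.

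**Figure D4:**
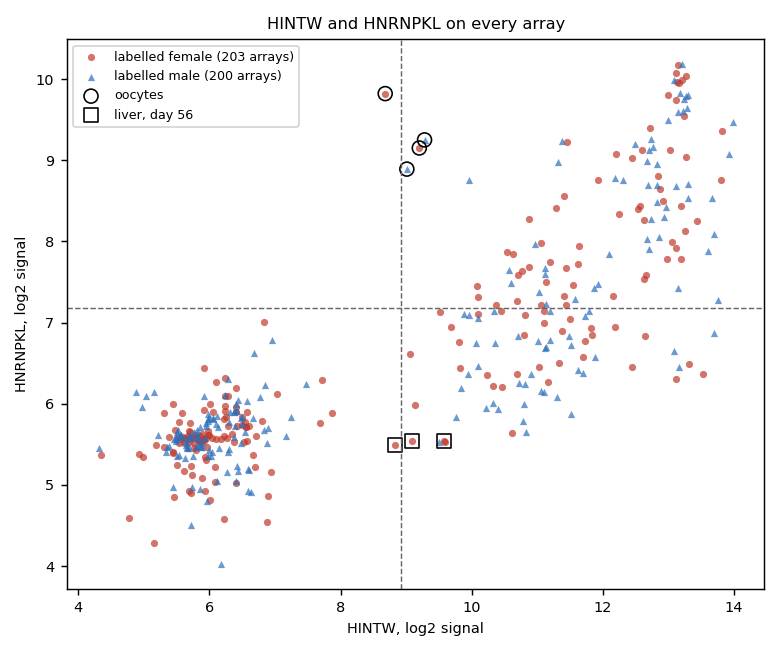
HINTW (x axis) against HNRNPKL (y axis) in log2 signal on every array, red circles labelled female and blue triangles labelled male, with dashed lines at the 2 thresholds, open circles around oocytes and open squares around liver at day 56. Both labels occur at both ends, oocytes stand alone with HINTW near its threshold and HNRNPKL at 8.89 to 9.82, and liver at day 56 has HNRNPKL at 5.49 to 5.54.

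HNRNPKL itself differed among tissues that were high in HINTW. It lay between 9.55 and 10.18 on the 16 retina arrays of days 14 to 35, and between 8.26 and 9.40 on the 12 brain arrays of days 28, 35 and 42. In the brain at days 0, 7, 8 and 9, where HINTW lay between 10.10 and 12.18, HNRNPKL ran from 6.00 to 7.72. Liver at day 7 had 7.29, 6.83, 7.27 and 7.22, and liver at day 0 had 5.79, 6.47, 5.98 and 6.50. Pectoralis muscle ran from 5.53 to 7.65 over its 24 HINTW-high arrays. Brain at days 1, 14, 21 and 49 and the second group at day 7 were left out of this comparison. The median SD over probe sets was 0.40 to 0.43 in the early brain groups named here and 0.10 to 0.13 in the late ones. Age and this spread go together in these early and late groups. Among those left out, brain at day 49, of the second run, had a median SD of 0.43 and HNRNPKL between 7.91 and 8.76. Brain at day 14, of the same run and low in MBP and GFAP, had a median SD of 0.47 and HNRNPKL between 6.30 and 7.43. The part of age, spread and run was not tested.

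Other probe sets of the 2 genes gave partly different pictures. The second HINTW probe set ran from 3.95 to 9.84 and, over deviations from group means, correlated with the first at 0.59 across all arrays. Its highest values were 9.62 to 9.84 on the 3 arrays labelled liver at day 56, above the 7.83 to 8.12 of retina at day 14, which came next. The 3 further probe sets of HNRNPKL correlated with the chosen HINTW probe set at 0.45, 0.66 and 0.75. The first of these stood at 9.56 to 10.25 on the 16 retina arrays of days 14 to 35 and nowhere else above 9.

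Genes whose deviations from the group means were most like those of HINTW were all placed on chromosome W. Across all arrays, and among 13050 other genes, these were LOC430910 (r = 0.82), LOC107049459 (0.79), HNRNPKL (0.78), UBE2R2L (0.76), LOC374195 (0.67), SPIN1L (0.63), LOC426615 (0.57) and LOC431003 (0.52). LOC374195 carries the synonym CHD1W in the gene table, a relative of a chromatin remodeller used to sex birds, and SPIN1L the synonym SPINW, a relative of spindlin. UBE2R2L is named as a relative of a ubiquitin-conjugating enzyme. The highest group median of LOC430910 was in retina at day 14 (10.16 to 10.38), and on the testes arrays it ran from 4.92 to 5.66. Of the 27167 other probe sets with a gene symbol, 12 had r over 0.5 and all 12 were placed on W. A further 8 of the 11271 probe sets with no symbol or several had r over 0.5, at most 0.79. These were not placed on a chromosome.

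Not every gene placed on W went with HINTW. Of the 16 other W-linked genes 13 had a positive r and 9 had r over 0.3, with a median of 0.43. UBAP2L2 stood at 0.35 and LOC427010 at 0.28. LOC107055438, LOC425347, MBD2, LOC427025 and LOC426220 lay between -0.04 and 0.12, and NEDD4L at -0.20.

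The genes most opposed to HINTW were placed on chromosome Z. The 8 with the lowest r were MRPS30 (-0.50), XPA (-0.46), CETN3 (-0.46), TARS (-0.45), MRPL50 (-0.44), SKIV2L2 (-0.43), TOMM5 (-0.42) and TRAPPC13 (-0.41). MRPS30 and MRPL50 encode mitochondrial ribosome proteins, XPA a DNA repair protein, CETN3 a centrin and TARS an aminoacyl-tRNA synthetase. The 50 lowest were all Z-linked. Over 606 Z-linked genes the median r was -0.10, and 80.2% were negative, against a median of 0.00 and 48.0% for 12428 genes elsewhere. HNRNPK, the Z-linked relative of HNRNPKL, had r = -0.30 at its brightest probe set, which ran from 5.06 to 11.90, and 0.02 and 0.03 at its 2 others. No probe set was named HINT1. The gene table lists the synonym HINTZ under HINT2, which was added to the named genes for that reason and had r = -0.19 over all arrays and -0.41 over the arrays of mixed groups.

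In 18 of the 20 mixed groups every HINTW-high array had a lower median level of Z-linked genes than every HINTW-low array. The exceptions were oocytes and liver at day 56, where the shift stayed between -0.02 and 0.02. For each array the median deviation of 430 Z-linked genes from their group means was taken, minus the same over 9279 genes of other chromosomes. On the 81 arrays of mixed groups it correlated with the deviation of HINTW at r = -0.94 and with that of HNRNPKL at -0.88. On the 322 arrays of the other groups it was -0.32 for HINTW. Mixed groups were defined by HINTW, whose deviations are larger there, so these values of r are not like for like. In brain at day 21 the shift was -0.15, -0.11 and -0.12 log2 units on the HINTW-high arrays and 0.11, 0.08 and 0.18 on the low ones. In lung at day 21 it was -0.18 and -0.16 on the high arrays, labelled male, and 0.18 and 0.16 on the low ones, labelled female.

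**Figure D5:**
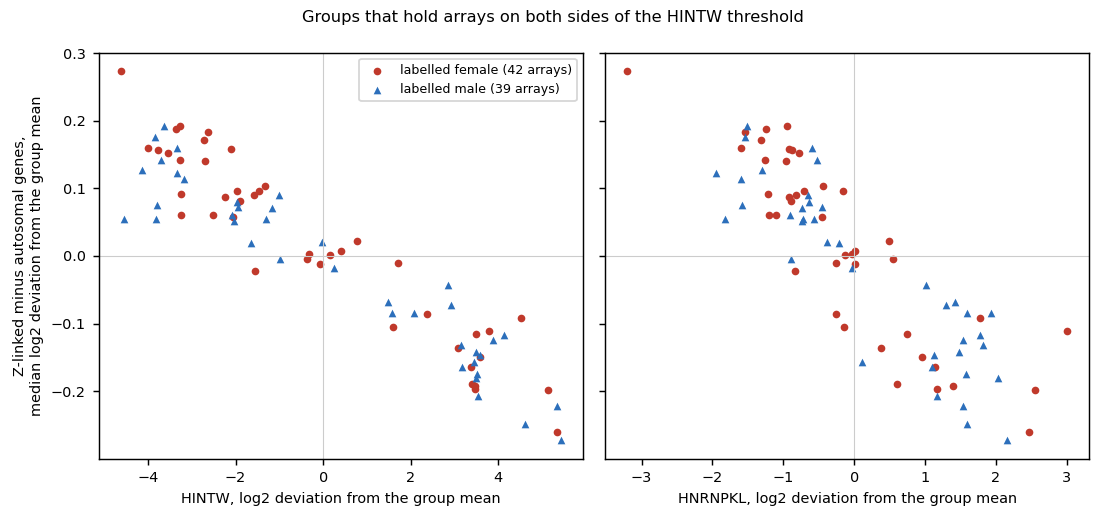
Deviation of HINTW (left) and of HNRNPKL (right) from the group mean, in log2 units, against the median deviation of Z-linked genes minus that of genes on other chromosomes, for the 81 arrays of the 20 mixed groups, red circles labelled female and blue triangles labelled male. Points fall from the upper left to the lower right in both panels, and both labels occur along the whole slope.

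The spread between arrays of a group came in 2 sizes. In 45 groups the median SD over probe sets was 0.09 to 0.20, and in the other 56 it was 0.37 to 0.54. All groups of the second run were wide, at 0.41 to 0.52, and all narrow groups were of the first run, which held both sizes. Spread thus goes partly with run in the counts that follow. Of the 45 narrow groups 12 were all high in HINTW, 22 all low and 11 mixed, and of the 56 wide groups 26 were all high, 21 all low and 9 mixed. Brain at day 21 was narrow, with a median SD of 0.11, while its HINTW values spanned 7.63 log2 units.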

How the data were processed

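Total RNA was extracted with Trizol and hybridised as biotin-labelled cRNA, per the labels' protocols. The authors deposited log2 values for each probe set and array, made with Affymetrix Expression Console 1.1 per the submitters' processing notes, and how they were normalized is not given here. Array medians lay between 5.99 and 6.47, and the number of arrays limits the precision. Of 38535 probe sets, 96 controls were left out, 27168 had 1 gene symbol in the platform annotation, 177 several and 11094 none. Chromosomes came from the RefSeq gene table of assembly GRCg7b, in which 26853 probe sets were matched. Groups were taken from the titles. Free descriptions of second-run arrays disagree with their titles on the tissue and were not followed.

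The members, marker lists and comparisons were chosen with earlier results of these data known. Arrays were called high or low by the threshold with the largest variance between classes (Otsu). Labelled sex was fitted in limma 3.58.1 (R 4.3.3) with tissue and age group as fixed effects, at an adjusted p under 0.05 (Benjamini-Hochberg), leaving out probe sets that were below the 25th percentile of all values in every group mean. The fit was tested on simulated data, with normal noise of a single SD per gene in all groups. HINTW fell into separate levels and its SD differed between groups, so that test does not cover it. Permutations, 100000 and two-sided, moved labels within groups. Named genes were both members, their Z-linked relatives HNRNPK and HINT1, W-linked genes, the 8 most and 8 least alike HINTW, and the 5 smallest adjusted p per direction for labelled sex. Alternatives were other thresholds, normalizations, filters and probe sets, array weights, replicate number as a block, and arrays left out. Leaving out brain at day 21, the groups that stood apart or repeated muscle arrays was chosen after seeing the data. Python 3.11.15 with matplotlib 3.10.9 made the figures.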

Additional observations from a re-analysis of the deposited data

Results flagged for a closer look

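Of 192 combinations of a gene with a group of 4 or 6 arrays, 20 had an array past Dixon's criterion for its group, 11 in HINTW and 9 in HNRNPKL. Chance alone gives about 1 in 20. The values are log2 signals, and the cause of each was not tested.

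For HINTW, 7 of the 11 lay in groups with both high and low arrays. A single high array was found in abdominal fat at day 14 (replicate 4, 13.27), lung at day 1 (replicate 2, 12.68), lung at day 7 (replicate 1, 13.7), lung at day 28 (replicate 4, 13.82), spleen at day 21 (replicate 2, 13.3) and growth plate at day 28 (replicate 3, 11.55). A single low array was found in lung at day 42 (replicate 4, 6.89). The other 4 lay within groups of 1 kind, namely first-run pectoralis muscle at day 21 (replicate 4, 7.68), brain at day 14 (replicate 3, 12.44), jejunum at day 7 (replicate 4, 5.93) and spleen at day 1 (replicate 3, 4.93).

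For HNRNPKL, 4 of the 9 were the same arrays as for HINTW, in abdominal fat at day 14 (9.04), lung at day 28 (9.36), lung at day 7 (8.09) and spleen at day 21 (8.71). The other 5 lay in groups low or high throughout in HINTW and came from abdominal fat at day 21 (replicate 4, 5.54), whole intestine at day 14 (replicate 3, 5.59), jejunum at day 28 (replicate 4, 5.39), liver at day 1 (replicate 2, 5.36) and liver at day 7 (replicate 2, 6.83). In whole intestine the other 3 arrays read 5.58, so the gap is 0.01, a step of the last printed digit.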

How the results depend on the processing

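The share of arrays whose HINTW call fitted the label stayed between 48.0% and 51.9% over all 18 alternatives. Groups of a single kind with as many arrays of each label hold equal numbers of fitting and unfitting arrays. This limits how far the share can move. The share high in HINTW kept to 44.7% to 47.9% with each replicate left out and fell to 24.1% with the second HINTW probe set, under which 36.6% of groups were mixed. HNRNPKL depended on its threshold and probe set. Its share of high arrays was 42.7% with a mixture of normal distributions, 16.9% and 45.2% with the threshold 1 log2 unit higher and lower, and 4.22% and 19.4% with the probe sets that correlated with HINTW at 0.45 and 0.66. The calls of both genes were then the same on 92.3%, 72.5%, 92.8%, 57.8% and 72.5% of arrays, where the first 3 settings changed the HINTW threshold too, and on 73.7% with the second HINTW probe set. Groups mixed in HNRNPKL, 33.7%, were 17.8% with the higher threshold and 0.990% with the first of these probe sets. With each replicate left out, HNRNPKL fitted the label on 44.0% to 59.3% of arrays. The share was 44.0% and 46.0% without replicates 1 and 2, mostly labelled male, and 59.3% and 58.0% without replicates 3 and 4, mostly labelled female. Most arrays were low in HNRNPKL, so a change in the balance of labels moves this share by itself.

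In limma, leaving out each replicate called 0 to 169 genes for labelled sex, 1 to 182 for unequal tissues and 0 to 12 for unequal runs. The labelled sex count was 5 in the first run only and 26 without the 6 pectoralis arrays. The tissue count was 5 after quantile normalization and 5 without brain at day 21, and the run count 0 under both. The difference between labels ran from -0.30 to 0.075 in HINTW and from -0.094 to 0.092 in HNRNPKL with each replicate left out, and was 0.040 in HNRNPKL with array weights and 0.070 in the first run only. The HINTW difference between runs ran from -0.38 to 0.11, and was 0.088 without brain at day 21. None of these passed the threshold, and the cause of the changes was not tested.

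With replicate number as a block, the difference between labels was 0.92 ± 0.52 in HINTW and 0.54 ± 0.25 in HNRNPKL (SE, limma adjusted p = 1.00 for both), with 0 genes called and 54 at an unadjusted p under 0.05. In 94 groups the label goes with the number, so this fit rests on how the few other groups differ from them. These are brain at day 21, first-run pectoralis muscle at day 28, and the 3 groups labelled female and 2 labelled male throughout. Within a group the labels share no replicate numbers, so the numbers pair no samples.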
